A study of Mus musculus with 8 samples.

Results

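Collagen processing and cross-linking genes were followed in primary lung fibroblasts (pFBs) of mice that express human IGFBP5. The genes were the 10 entries of the deposited gene table, out of 54532, that carry the symbols *P4ha1*, *P4ha2*, *P4ha3*, *Plod2*, *Serpinh1*, *Pcolce*, *Pcolce2*, *Lox*, *Loxl1* and *Loxl2*. Each symbol stood on a single entry, and all 10 passed the filter on low counts, so all were among the 14150 genes tested.

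A collagen chain is modified, folded, trimmed and cross-linked before it bears load. In the endoplasmic reticulum, prolyl 4-hydroxylases (alpha subunits *P4ha1*, *P4ha2* and *P4ha3*) hydroxylate prolines, which stabilizes the triple helix, and lysyl hydroxylase 2 (*Plod2*) hydroxylates lysines in the ends of the chain that later form cross-links. The chaperone HSP47 (*Serpinh1*) binds the folded procollagen and travels with it to the Golgi. Outside the cell, proteinases of the BMP1 family remove the C-propeptide with the help of the enhancers *Pcolce* and *Pcolce2*, and lysyl oxidases (*Lox*, *Loxl1*, *Loxl2*) oxidize lysine and hydroxylysine side chains, the step that starts cross-linking of collagen and elastin. Fibroblasts are the main source of these products in the lung, and stiff, highly cross-linked collagen is a known feature of pulmonary fibrosis.

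The RNAseq data comprised 4 libraries of wild type mice (WT1 to WT4) and 4 of mice homozygous for the transgene (HOMO1 to HOMO4). All cells were untreated pFBs from female mice on a C57/black background, grown out of minced lung tissue in serum-containing complete media. The transgene is a CRISPR/Cas9 knock-in of human IGFBP5 under the ubiquitous elongation factor 1 a1 promoter, so its expression is not restricted to fibroblasts, and WT mice lack it. The age of the mice, and how many mice stand behind the libraries, were not stated in the sources used here, so the p-values measure only the spread between these libraries. The counts were made on the mouse genome, and the human transgene was not analysed here.

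The WT libraries held 17236521 to 29028769 counted reads and the HOMO libraries 19009027 to 31987790. Levels are given as CPM, counts scaled to library size with TMM factors, and 3 counts corresponded to 0.0908 to 0.172 CPM, a floor that covers counting error only. HOMO was compared with WT by edgeR's quasi-likelihood test. A gene is called differentially expressed (DEG) where its p, Benjamini-Hochberg adjusted over all tested genes, is under 0.05 and its log2 fold change lies beyond 0.6 in either direction. This called 1716 genes, 12.1% of those tested, with 841 (5.94%) upregulated and 875 (6.18%) downregulated, and the median log2 fold change of all tested genes was -0.04. Certain libraries formed close pairs, namely WT1 with WT2, HOMO1 with HOMO2 and HOMO3 with HOMO4, with biological coefficients of variation of 4.74 to 7.66% against 31.6 to 58.5% for the other pairs of a genotype, although each close pair still differed by more than counting noise. With the close pairs summed, which left 3 WT and 2 HOMO units, edgeR called 0 genes (0.0%), and 2057 had an unadjusted p under 0.05. Summed fibroblast markers reached at least 12937 CPM in every library, and all 9 were above 3 counts. Of these 9, 2 were called, and the sum includes *Col1a1* and *Col1a2*, which are described below. *Col1a1* was higher in HOMO without overlap of the genotypes. *Vim* (2589 to 3012 CPM in WT, 1542 to 2126 CPM in HOMO) and *Pdgfrb* (554 to 958 against 288 to 409 CPM) were lower without overlap. The 7 epithelial markers summed to 0.394 to 5.62 CPM in WT and 4.01 to 16.0 CPM in HOMO. Of the 2 epithelial markers that were tested, 1 was called. The 6 endothelial markers summed to 1.33 to 4.26 CPM in WT and 1.43 to 4.26 CPM in HOMO. The 7 macrophage markers summed to 1957 CPM in WT3 and 1144 CPM in WT4, against 131 and 159 CPM in WT1 and WT2 and 57.9 to 190.1 CPM in HOMO, and the 6 mesothelial markers to 52.8 to 235 CPM in WT and 106 to 152 CPM in HOMO. All 6 mesothelial markers were tested, and 1 was called. The mesothelial gene *Wt1* reached at most 8.66 CPM in WT and at least 26.8 CPM in HOMO, so its genotypes did not overlap. The ranges of the other mesothelial markers overlapped between the genotypes. In bulk RNA, fewer cells of a type and less RNA per cell cannot be told apart.

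Of the 10 genes, edgeR with all libraries called *Plod2* and *P4ha2* downregulated in HOMO and none upregulated. Those 2 of 10 stand beside the 12.1% called among all tested genes in either direction. The log2 fold change was above 0 for 3 of the 10 genes and below 0 for 7, with a median of -0.33. These counts and the median depend on WT3, without which *Serpinh1*, *Pcolce*, *Loxl1* and *Loxl2* turned above 0. In 3 genes, *Plod2*, *P4ha2* and *Pcolce2*, the CPM of the genotypes did not overlap, as was so for 27.3% of all tested genes. DESeq2 called 4 of the 10 (16.5% of all genes it gave an adjusted p), 2 lower and 2 higher, the latter *P4ha3* and *Pcolce2*. Limma-voom with sample quality weights called 6 (25.3% of all genes), 2 lower and 4 higher. The 4 were *P4ha3*, *Pcolce2*, *Lox* and *Loxl1*. With the close pairs summed, edgeR called 0 of the 10, with 3 at an unadjusted p under 0.05. The plot of CPM by library shows that most of the spread lay within WT.

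**Figure D1:**
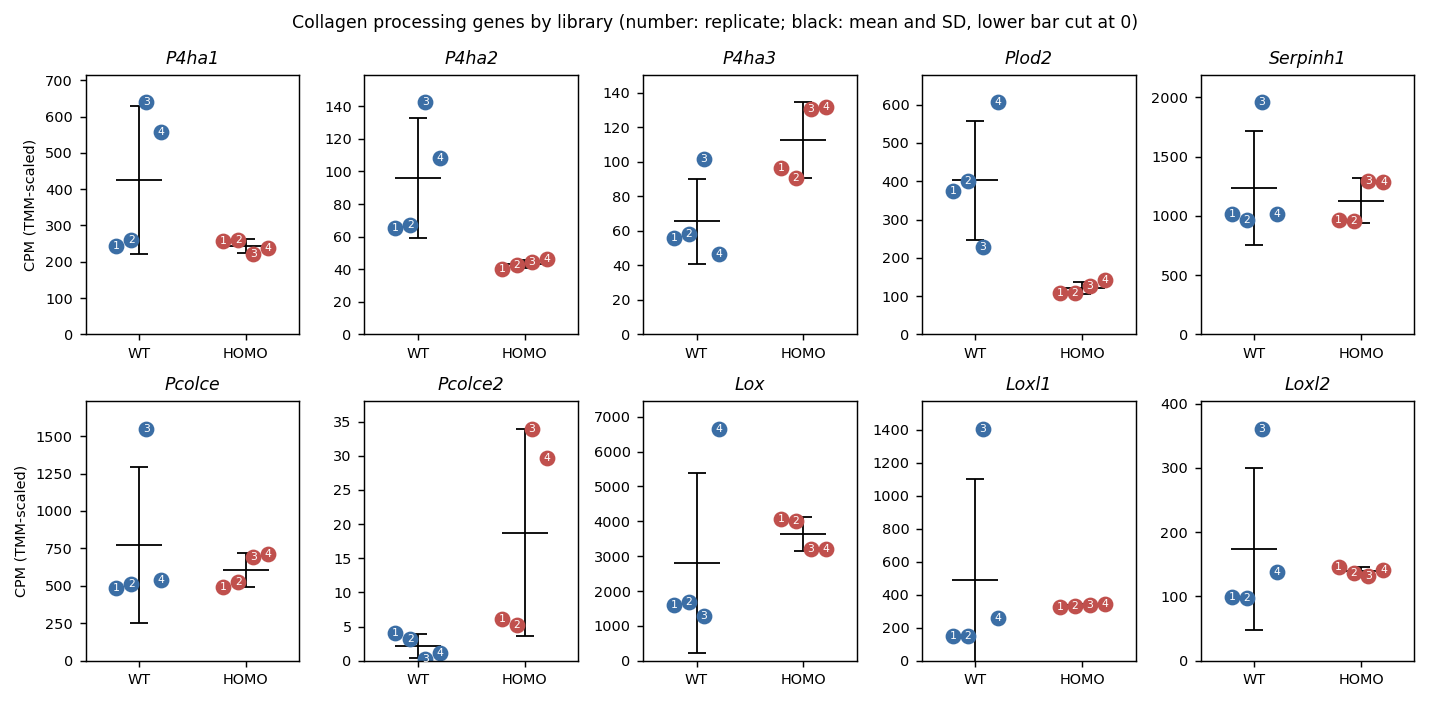
Normalised level (CPM, linear axis from 0, a separate scale for each gene) of the 10 genes in each library, with WT in blue and HOMO in red, numbers for the replicates, and black lines for the mean and SD of 4 libraries. *Plod2* and *P4ha2* were lower in all HOMO libraries than in any WT library, while WT3 stands far above the other WT libraries for *Loxl1*, *Loxl2*, *Pcolce* and *Serpinh1*, and WT4 for *Lox*.

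The 3 prolyl 4-hydroxylase genes did not share a direction: *P4ha2* fell in HOMO, *P4ha1* had a negative and *P4ha3* a positive fold change that missed the threshold. Their alpha subunits each pair with the same beta subunit, protein disulfide isomerase. The sequences before their RefSeq start sites are shown because these related genes differ in direction. Capitals mark ACGTG or its reverse complement CACGT, the core of the hypoxia response element, which was searched on both strands of the 250 bases before each start and with the expression values already known. Sequences are 5′ to 3′ on the strand of the gene, from RefSeq on GRCm38.p6, at chr10:59323046-59323295 for *P4ha1*, chr11:54100674-54100923 for *P4ha2* and chr7:100285270-100285519 for *P4ha3*, all on the plus strand.
P4ha1: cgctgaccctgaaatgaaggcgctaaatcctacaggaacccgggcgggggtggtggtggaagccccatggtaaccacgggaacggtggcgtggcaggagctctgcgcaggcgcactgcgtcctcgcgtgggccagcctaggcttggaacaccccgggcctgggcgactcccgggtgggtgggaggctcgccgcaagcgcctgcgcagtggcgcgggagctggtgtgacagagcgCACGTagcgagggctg
P4ha2: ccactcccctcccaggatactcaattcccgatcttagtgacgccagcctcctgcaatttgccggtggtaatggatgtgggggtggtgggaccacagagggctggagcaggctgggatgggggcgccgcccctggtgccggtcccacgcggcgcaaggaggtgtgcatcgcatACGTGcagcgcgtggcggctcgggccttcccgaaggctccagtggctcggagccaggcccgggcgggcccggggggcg
P4ha3: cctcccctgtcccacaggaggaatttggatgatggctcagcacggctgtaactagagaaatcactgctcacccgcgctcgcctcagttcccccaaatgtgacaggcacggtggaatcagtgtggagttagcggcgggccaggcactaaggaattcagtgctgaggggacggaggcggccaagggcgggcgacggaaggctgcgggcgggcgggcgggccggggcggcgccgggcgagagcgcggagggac
The *P4ha1* window holds the motif once, starting at base -16, and the *P4ha2* window once, at base -78. The *P4ha3* window does not hold these letters. The *P4ha1* and *P4ha3* windows end at the base before the annotated gene, and the *P4ha2* window lies inside the annotated gene but in no annotated exon. Promoter windows were at hand for 6 of the 10 genes, of which 3 held the motif, the third being *Serpinh1* at base -171, against 16.6% of 32851 windows of all genes. No window was at hand for *Plod2*, *Lox*, *Loxl1* or *Loxl2*, so the motif was not searched there. The motif was also in 8 of 23 windows of the other collagen processing genes described below (34.8%). Among fibrillar collagen chains it was in 3 of 8 windows (37.5%). A match of these letters is a description and not a binding site.

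*P4ha2* (chromosome 11, 54100095 to 54131665, GRCm38) was counted at 65.2, 67.1, 142 and 109 CPM in WT1 to WT4 and at 40.3, 42.5, 44.5 and 46.3 CPM in HOMO1 to HOMO4. Every HOMO library was below every WT library, and the HOMO libraries lay close together. This gave a log2 fold change of -1.14 (SE 0.25), a level 2.21-fold lower in HOMO (edgeR adjusted p = 0.0242). Leaving out any WT library kept the call, and leaving out any HOMO library ended it, with edgeR adjusted p between 0.0561 and 0.0864 and log2 fold changes of -1.10 to -1.15. With the close pairs summed, the log2 fold change was -1.26 and the edgeR adjusted p 0.308, and in limma-voom the gene was called at -0.62.

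*P4ha1* (chromosome 10, 59323296 to 59373304) stood at 243, 259, 639 and 557 CPM in WT1 to WT4 and at 258, 259.5, 220.3 and 237 CPM in HOMO1 to HOMO4. WT1 and WT2 were at the level of HOMO, and only WT3 and WT4 were higher. edgeR gave *P4ha1* a log2 fold change of -0.80 (SE 0.32, 95% interval -1.53 to -0.07) and an adjusted p of 0.126, and limma-voom gave -0.13. The level of *P4ha1* was the highest of the 3 per length, with 103 ± 49.4 CPM per kilobase of exon in WT and 59.2 ± 4.56 in HOMO (SD, n = 4), against 15.4 ± 5.92 and 6.95 ± 0.411 for *P4ha2*.

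*P4ha3* (chromosome 7, 100285520 to 100319699) stood at 55.8, 58.5, 102 and 46.4 CPM in WT1 to WT4 and at 96.7, 90.8, 131 and 132 CPM in HOMO1 to HOMO4. Only WT3 reached into the HOMO range. The log2 fold change was 0.78 (SE 0.26, 95% interval 0.19 to 1.37) and the edgeR adjusted p 0.0809. Without WT3 it was 1.07 and the gene was called (edgeR adjusted p = 0.00867), and DESeq2 also called it with all libraries (adjusted p = 0.0456). Chromosome 7 also carries *Serpinh1*. Over its genes, the median difference between WT3 and the mean of the other WT libraries was 0.36 on the log2 scale. These genes had a median log2 fold change of -0.29. On chromosome 9 (*Plod2*, *Pcolce2*, *Loxl1*) the median difference was 0.24 for WT3 and -0.19 for WT4. For WT4 it was 0.23 on chromosome 10 (*P4ha1*) and -0.23 on chromosome 14 (*Loxl2*). Chromosome 18 (*Lox*) had a median log2 fold change of -0.31. On chromosomes 5 (*Pcolce*) and 11 (*P4ha2*) these medians were smaller in size. The part of these shifts in the values of the 10 genes was not tested.

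The share of *P4ha1* within its family was higher in every WT library than in any HOMO library. This gene made up 67.6, 68.2, 73.7 and 80.8% of the length-scaled counts of the 3 genes in WT1 to WT4 and 62.7, 63.8, 52.3 and 53.7% in HOMO1 to HOMO4. The mean share was 72.6 ± 6.12% in WT and 58.1 ± 5.97% in HOMO (SD, n = 4), with an exact two-sided permutation p of 0.0286, the smallest that 4 against 4 libraries allow, and 0.0571 after Benjamini-Hochberg adjustment over 4 shares. This test takes the libraries as independent, and with the close pairs summed the adjusted permutation p was 0.4. The share of *P4ha3* was 8.83 to 20.4% in WT and 29.3 to 40.7% in HOMO, and that of *P4ha2* 10.4 to 12.0% in WT and 6.46 to 6.96% in HOMO. These 2 shares were described and not tested.

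**Figure D2:**
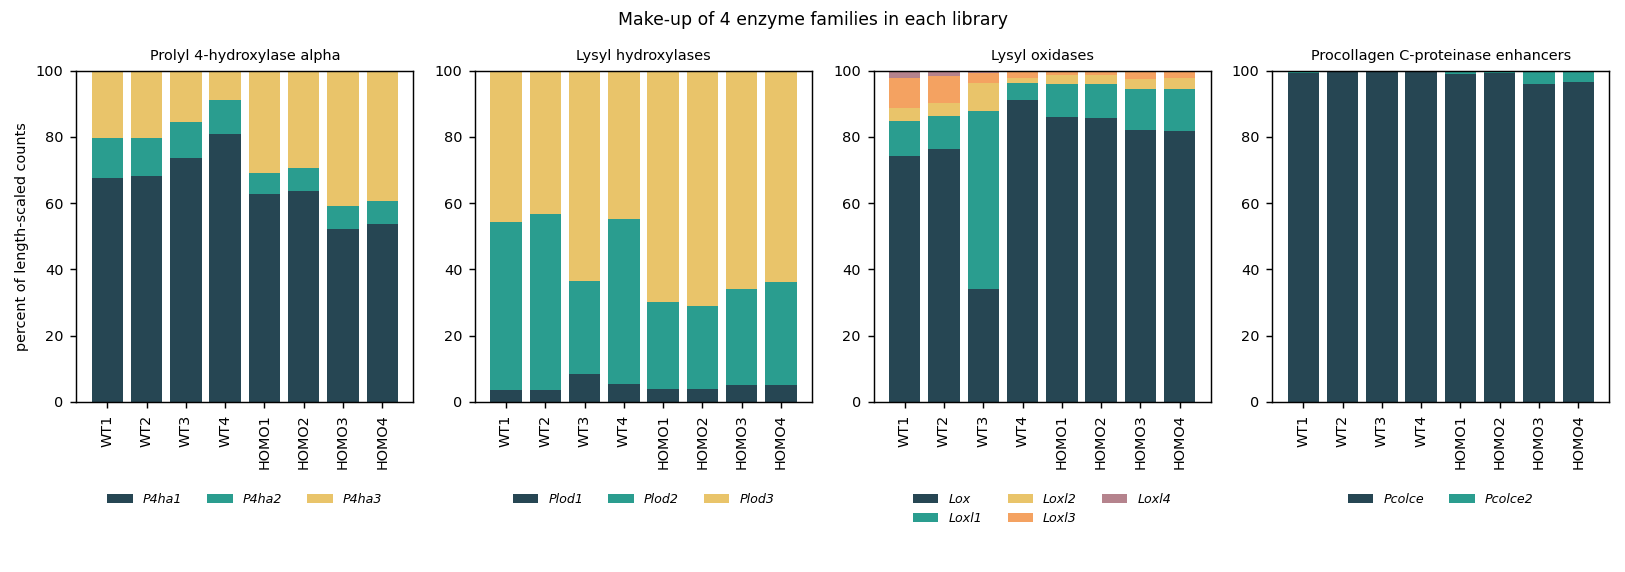
Share of each gene in the summed length-scaled counts of its family (percent, stacked to 100) in each of the 8 libraries, for the prolyl 4-hydroxylase alpha subunits, lysyl hydroxylases, lysyl oxidases and procollagen C-proteinase enhancers. *P4ha1* takes 67.6 to 80.8% in WT and 52.3 to 63.8% in HOMO, and WT3 is the one library in which *Loxl1* (53.8%) exceeds *Lox* (34.1%).

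*Plod2* fell in HOMO and had the lowest adjusted p of the 10 genes. The gene (chromosome 9, 92542223 to 92608428) stood at 373, 401, 228 and 606 CPM in WT1 to WT4 and at 108, 108, 127 and 142 CPM in HOMO1 to HOMO4. Even WT3, the lowest WT library, was above the highest HOMO library. HOMO minus WT was -1.73 on the log2 scale (SE 0.28, 95% interval -2.36 to -1.10), a level 3.32-fold lower in HOMO (edgeR adjusted p = 0.0081). The call held in all 8 fits that left out a library, with log2 fold changes of -1.93 to -1.47, and was lost with the close pairs summed, where the log2 fold change was -1.74 and the edgeR adjusted p 0.299. Of the exon bases of *Plod2*, 6.42% overlap *Gm38391* on the opposite strand, and whether the counting used strand was not given in the sources used here.

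Among the 3 lysyl hydroxylases, *Plod2* made up 50.5, 53.1, 28.1 and 49.9% of length-scaled counts in WT1 to WT4 and 26.2, 24.9, 28.9 and 31.0% in HOMO1 to HOMO4. WT3 lay inside the HOMO range, and the other WT libraries lay above it. The mean shares of 45.4 ± 11.6% in WT and 27.8 ± 2.73% in HOMO (SD, n = 4) did not pass the test (exact two-sided permutation p = 0.0857, 0.114 adjusted over 4 shares). *Plod3*, which also adds sugars to hydroxylysine, held most of the rest, 43.4 to 63.4% in WT and 63.8 to 71.1% in HOMO.

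*Serpinh1* (chromosome 7, 99345376 to 99353239) stood at 1017, 965, 1959 and 1015 CPM in WT1 to WT4 and at 970.0, 962, 1298 and 1287 CPM in HOMO1 to HOMO4. WT3 was far above the rest, and the other WT libraries fell between the lowest and the highest HOMO libraries. In edgeR *Serpinh1* had a log2 fold change of -0.13 (SE 0.27, 95% interval -0.74 to 0.47, adjusted p = 0.765), which turned to 0.17 without WT3. A change in *Serpinh1* of the size seen for *Plod2* lies outside this interval.

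The propeptide enhancers *Pcolce* and *Pcolce2* differed in level and in fold change. *Pcolce* (chromosome 5, 137605103 to 137613784), the abundant form, stood at 484, 512, 1549 and 538 CPM in WT1 to WT4 and at 494, 524, 693 and 713 CPM in HOMO1 to HOMO4. Apart from WT3, the WT libraries overlapped with HOMO1 and HOMO2 and were below HOMO3 and HOMO4. Its log2 fold change was -0.35 (SE 0.39, 95% interval -1.24 to 0.55, edgeR adjusted p = 0.579) and turned to 0.24 without WT3. *Pcolce* shares 2.93% of its exon bases with *Fbxo24* on the same strand.

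*Pcolce2* (chromosome 9, 95637601 to 95698096) was scarce in WT, with 71, 75, 4 and 28 counts in WT1 to WT4, which are 3.99, 3.22, 0.23 and 1.08 CPM. HOMO1 to HOMO4 held 138, 172, 670 and 592 counts, or 6.15, 5.20, 34.0 and 29.7 CPM. All HOMO libraries were above all WT libraries, and HOMO3 and HOMO4 stood well above HOMO1 and HOMO2. The log2 fold change of 3.13 (SE 0.91, 95% interval 1.06 to 5.21) just missed the threshold (edgeR adjusted p = 0.0543). It passed in DESeq2 (adjusted p = 0.00112), in limma-voom (0.0203) and in edgeR without a filter on low counts (0.0464). It did not pass with the replicate number as a block (edgeR adjusted p = 0.217), with the close pairs summed (0.347) or in any of the 8 fits that left out a library (0.0578 to 0.119). As a share of the 2 enhancers per length, *Pcolce2* made up 0.343 ± 0.307% in WT and 2.26 ± 1.57% in HOMO (SD, n = 4, exact two-sided permutation p = 0.0286, 0.0571 adjusted over 4 shares), so *Pcolce* still made up at least 96.1% in every library. With the close pairs summed, the adjusted permutation p of the *Pcolce2* share was 0.4.

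The lysyl oxidases *Lox*, *Loxl1* and *Loxl2* showed no call with all libraries, and single WT libraries decided their fold changes. *Lox* (chromosome 18, 52516067 to 52529867), on average the most abundant of the 10 genes per length in both genotypes, stood at 1596, 1682, 1292 and 6656 CPM in WT1 to WT4 and at 4076, 4018, 3213 and 3204 CPM in HOMO1 to HOMO4. WT4 alone was above HOMO, and the other WT libraries were below all HOMO libraries. With all libraries the log2 fold change was 0.37 (SE 0.51, 95% interval -0.80 to 1.54, edgeR adjusted p = 0.654). Without WT4 it was 1.25 and *Lox* was called (edgeR adjusted p = 0.00912). The first place of *Lox* per length in WT also rests on WT4, at 1393 CPM per kilobase against 416 for *Serpinh1*. In WT1 to WT3 *Lox* stood at 334, 352 and 270 CPM per kilobase, below *Serpinh1* at 416, 395 and 802.

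*Loxl1* (chromosome 9, 58287738 to 58313186), which takes part in elastic fibre assembly, stood at 153, 152, 1407 and 258 CPM in WT1 to WT4 and at 327, 334, 337 and 345 CPM in HOMO1 to HOMO4. HOMO varied by a factor of 1.05 from its lowest to its highest library and WT by a factor of 9.28, with WT3 above and the other WT libraries below all of HOMO. For *Loxl1* the log2 fold change was -0.55 (SE 0.69, 95% interval -2.12 to 1.02, edgeR adjusted p = 0.615). Without WT3 it turned to 0.84, and *Loxl1* was called (edgeR adjusted p = 0.0283).

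*Loxl2* (chromosome 14, 69609068 to 69695834), which cross-links collagen IV among other substrates, stood at 98.6, 98.1, 361 and 138 CPM in WT1 to WT4 and at 146, 137, 132 and 141 CPM in HOMO1 to HOMO4. WT3 was again the highest library, WT4 lay in the HOMO range, and WT1 and WT2 were below it. The log2 fold change was -0.32 (SE 0.40, 95% interval -1.24 to 0.60, edgeR adjusted p = 0.617) and was 0.32 without WT3, with no call. Its exons share 5.70% of their bases with *Gm27177* on the opposite strand.

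WT3 was the highest WT library for 7 of the 10 genes, WT4 for 2 and WT1 for 1. The range over the WT libraries reached 3.21 on the log2 scale for *Loxl1* and 2.36 for *Lox*, against a median of 0.97 for all tested genes. In HOMO the range was 0.08 for *Loxl1* and 0.35 for *Lox*, against a median of 0.43. Smooth muscle markers, 5 of 5 above 3 counts, summed to 2794 CPM in WT3 against 801 to 908 CPM in the other WT libraries, and to 203 and 209.5 CPM in HOMO1 and HOMO2 against 1485 and 1461 CPM in HOMO3 and HOMO4. These sums were mostly *Acta2*, which alone ranged from 743 to 2418 CPM in WT and from 190 to 1363 CPM in HOMO. The macrophage sum was also highest in WT3, as given above. The part of these markers in the WT3 values was not tested. Without WT3, 4 of the 10 genes were called (*Plod2*, *P4ha2*, *P4ha3* and *Loxl1*), against 15.0% of all tested genes in that fit, and without WT4 3 were called (*Plod2*, *P4ha2* and *Lox*), against 12.8%.

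**Figure D3:**
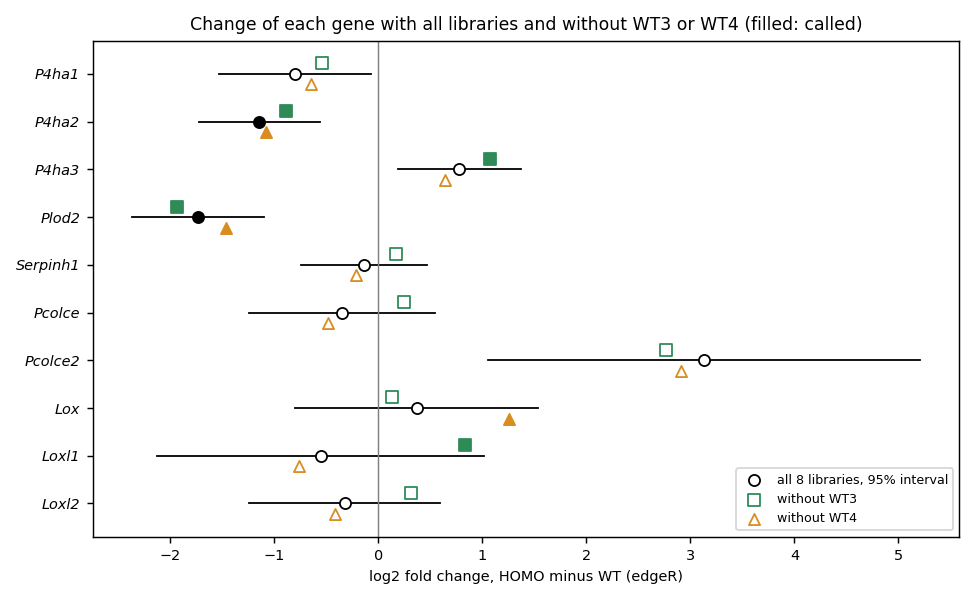
Log2 fold change (HOMO minus WT, edgeR) of the 10 genes with all 8 libraries (circle, with its 95% interval), without WT3 (square) and without WT4 (triangle), with filled symbols where a gene was called. *Plod2* and *P4ha2* stay filled and below 0 in the 3 fits, *Loxl1* moves from -0.55 to 0.84 without WT3, and *Lox* moves from 0.37 to 1.25 without WT4.

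*Lox* made up 74.4, 76.3, 34.1 and 91.0% of the length-scaled counts of the 5 lysyl oxidase genes in WT1 to WT4 and 85.9, 85.8, 82.0 and 81.8% in HOMO1 to HOMO4. The HOMO shares were tight, and WT held both the lowest and the highest library. The mean shares of 68.9 ± 24.4% in WT and 83.9 ± 2.29% in HOMO (SD, n = 4) did not differ beyond this spread (exact two-sided permutation p = 0.2, also 0.2 after adjustment over 4 shares).

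The wider set of collagen processing genes held 26 further genes, of which 24 were tested. In HOMO 5 of these were downregulated and 1 was upregulated, 19 had a log2 fold change below 0, and the median was -0.37, against -0.04 for all tested genes. These 6 calls of 24 stand beside 12.1% of all tested genes, and the 11 of 24 without overlap of the genotypes beside 27.3%. By role, 2 of 11 genes of modification and folding were called, 0 of 5 of export from the endoplasmic reticulum (1 at an unadjusted p under 0.05), 1 of 5 of propeptide removal, and 3 of 3 of cross-linking. With the close pairs summed 0 of the 24 were called by edgeR, with 8 at an unadjusted p under 0.05, and DESeq2 with all libraries called 8 of the 26, beside 16.5% of all genes.

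The 3 further cross-linking genes all fell. *Loxl3*, a lysyl oxidase, stood at 186, 171, 110.2 and 133 CPM in WT1 to WT4 and at 51.0, 47.7, 82.8 and 72.7 CPM in HOMO1 to HOMO4 (log2 fold change -1.24, SE 0.24, edgeR adjusted p = 0.0146), and 11.6% of its exon bases overlap *Htra2* on the opposite strand. *Loxl4* stood at 42.7, 34.1, 22.6 and 19.7 CPM in WT1 to WT4 and at 11.2, 10.5, 13.3 and 13.2 CPM in HOMO1 to HOMO4 (log2 fold change -1.31, SE 0.26, edgeR adjusted p = 0.0165). In both, the HOMO libraries were below all WT libraries. *Tgm2*, a transglutaminase that joins glutamine to lysine, stood at 165, 176, 335 and 191 CPM in WT1 to WT4 and at 119, 109.7, 90.3 and 118 CPM in HOMO1 to HOMO4 (log2 fold change -0.99, SE 0.24, edgeR adjusted p = 0.0319), again without overlap. Of its exon bases 21.8% overlap other genes. In fits that left out a library, the calls of *Loxl3* and *Loxl4* were lost without HOMO1 or HOMO2 (edgeR adjusted p = 0.0562 to 0.0668), and that of *Tgm2* without any 1 of the HOMO libraries (0.067 to 0.1).

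*Plod1* and *P3h3*, the called genes of modification, were lower in HOMO. *Plod1* encodes lysyl hydroxylase 1, which acts on lysines within the helix, and stood at 34.7, 33.5, 86.1 and 81.4 CPM in WT1 to WT4 and at 19.8, 21.7, 27.9 and 29.5 CPM in HOMO1 to HOMO4 (log2 fold change -1.25, SE 0.35, edgeR adjusted p = 0.0466). *P3h3*, a member of the prolyl 3-hydroxylase family, ranged from 135 to 287 CPM in WT and from 81.0 to 96.2 CPM in HOMO (log2 fold change -1.22, SE 0.25, edgeR adjusted p = 0.0193). For both, WT3 and WT4 were the highest libraries, and all HOMO libraries were lower than any WT library. The *Plod1* call held in 2 of 8 fits that left out a library and was lost without WT3, WT4 or any HOMO library (edgeR adjusted p = 0.0715 to 0.14). *P3h3* lost its call without HOMO1 or HOMO2 (edgeR adjusted p = 0.0731 and 0.0725). *Adamts3*, which removes the N-propeptide, was the one that rose, from 2.25, 2.40, 1.78 and 0.116 CPM in WT1 to WT4 to 9.63, 9.92, 12.9 and 13.0 CPM in HOMO1 to HOMO4 (log2 fold change 2.80, SE 0.67, edgeR adjusted p = 0.0310). WT4 was the lowest library, at 3 counts, and the call was lost without WT2 or any HOMO library (edgeR adjusted p = 0.0514 to 0.0807).

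The fibrillar collagens are main substrates of these enzymes. Of 11 fibrillar collagen chains, 10 were tested, and 2 rose in HOMO while none fell, beside 12.1% called among all tested genes. Of the other 8, *Col5a1* had a log2 fold change of -0.93 without overlap of the genotypes (edgeR adjusted p = 0.0611) and was called lower in DESeq2 (adjusted p = 0.0187) and with the replicate number as a block (adjusted p = 0.0349). *Col5a2* (-1.15) and *Col11a1* (-1.02) also had log2 fold changes well below 0 and were not called (edgeR adjusted p = 0.157 and 0.154). These 3 chains were named after their values were seen. *Col27a1* went from 2.19, 3.39, 9.07 and 4.14 CPM in WT1 to WT4 to 53.2, 61.3, 25.7 and 31.4 CPM in HOMO1 to HOMO4 (log2 fold change 3.19, SE 0.48, edgeR adjusted p = 0.00691). *Col11a2* went from 1.74 to 8.59 CPM in WT to 11.7 to 18.7 CPM in HOMO (log2 fold change 1.96, SE 0.51, edgeR adjusted p = 0.0384). The genotypes did not overlap for either chain. *Col27a1* was called in all 8 fits that left out a library, and *Col11a2* only in the fit without WT4, with edgeR adjusted p of 0.0585 (without WT3) to 0.111 (without HOMO2) in the other 7.

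The main chains of type I collagen were higher on average in HOMO without being called. *Col1a1* stood at 4845, 4767, 5667 and 4390.0 CPM in WT1 to WT4 and at 5851, 5743, 11713 and 11368 CPM in HOMO1 to HOMO4, with no overlap (log2 fold change 0.82, SE 0.30, edgeR adjusted p = 0.0985). *Col1a2* ranged from 3282 to 5335 CPM in WT and from 5158 to 7827 CPM in HOMO (log2 fold change 0.66, SE 0.25, edgeR adjusted p = 0.105). DESeq2 called 5 of the 11 chains, 4 higher and 1 lower, beside 16.5% of all genes, and these included *Col1a1* (adjusted p = 0.0373) and *Col1a2* (adjusted p = 0.0423). Without WT3, edgeR also called *Col1a2*, with a log2 fold change of 0.80. The median log2 fold change of the 10 tested chains was 0.32, beside -0.33 for the 10 processing genes. The latter depends on WT3, without which *Serpinh1*, *Pcolce*, *Loxl1* and *Loxl2* were above 0 (0.17, 0.24, 0.84 and 0.32).

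*P4ha1*, *P4ha2*, *Plod2*, *Lox* and *Loxl2* are textbook targets of the hypoxia-inducible transcription factors, so 18 other hypoxia-induced genes were counted beside them. Neither oxygen nor the activity of these factors was measured. All 18 were tested, 6 fell in HOMO, none rose, and 15 had a log2 fold change below 0, with a median of -0.93 against -0.04 for all tested genes. The 6 of 18 stand beside 6.18% called lower among all tested genes. DESeq2 called 8, all lower, beside 16.5% of all genes called in either direction. In limma-voom 10 were called, of which 8 were lower and 2 higher, beside 25.3% of all genes. The windows of 250 bases held ACGTG in 11 of the 19 windows of this list (57.9%), and a gene with several starts counts more than once. The share was 16.6% over all windows, 34.8% for the other collagen processing genes and 37.5% for fibrillar collagen chains. With the close pairs summed, 0 of the 18 were called by edgeR, with 7 at an unadjusted p under 0.05. The genotypes did not overlap in 7 of the 18, beside 27.3% of all tested genes. *Bnip3* stood at 17.2, 22.3, 105 and 50.3 CPM in WT1 to WT4 and at 13.4 to 18.1 CPM in HOMO. *Ndrg1* stood at 6.98, 6.86, 76.8 and 40.2 CPM in WT1 to WT4 and at 7.62 to 12.0 CPM in HOMO. DESeq2 called both and edgeR neither. How far the median rests on WT3 and WT4 was not tested.

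*Vegfa*, an angiogenic growth factor, stood at 386, 341, 210.0 and 428 CPM in WT1 to WT4 and at 144, 143, 155 and 162 CPM in HOMO1 to HOMO4 (log2 fold change -1.18, SE 0.21, edgeR adjusted p = 0.0123). As for *Plod2*, WT3 was the lowest and WT4 the highest WT library. *Ero1l*, an oxidase of protein folding, stood at 107, 111, 162 and 204 CPM in WT1 to WT4 and at 71.6, 67.5, 64.7 and 69.8 CPM in HOMO1 to HOMO4 (log2 fold change -1.09, SE 0.21, edgeR adjusted p = 0.0156). The other called genes were *Adm*, which encodes the vasodilator adrenomedullin (207 to 680.4 CPM in WT, 30.8 to 57.9 CPM in HOMO, log2 fold change -2.92, SE 0.46, edgeR adjusted p = 0.00789), and *Pgk1* of glycolysis (400.0 to 553 against 132 to 273 CPM, log2 fold change -1.18, SE 0.28, edgeR adjusted p = 0.0297). *Egln3*, an oxygen-sensing prolyl hydroxylase, ranged from 2.59 to 14.7 CPM in WT and from 0.696 to 1.01 CPM in HOMO (log2 fold change -3.11, SE 0.61, edgeR adjusted p = 0.0157). For *Ndufa4l2*, which encodes a mitochondrial protein, WT1 to WT4 held 17, 30, 624 and 565 counts and HOMO1 to HOMO4 held 4, 4, 1 and 0 (edgeR adjusted p = 0.0176), too few for a stable fold. Of these 6, *Adm* was called in all 8 fits that left out a library. *Vegfa*, *Ero1l* and *Egln3* lost the call without HOMO1 or HOMO2, *Pgk1* without WT1, HOMO1 or HOMO2, and *Ndufa4l2* without HOMO1, HOMO2 or HOMO3 (edgeR adjusted p = 0.0508 to 0.0903 in these fits).

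**Figure D4:**
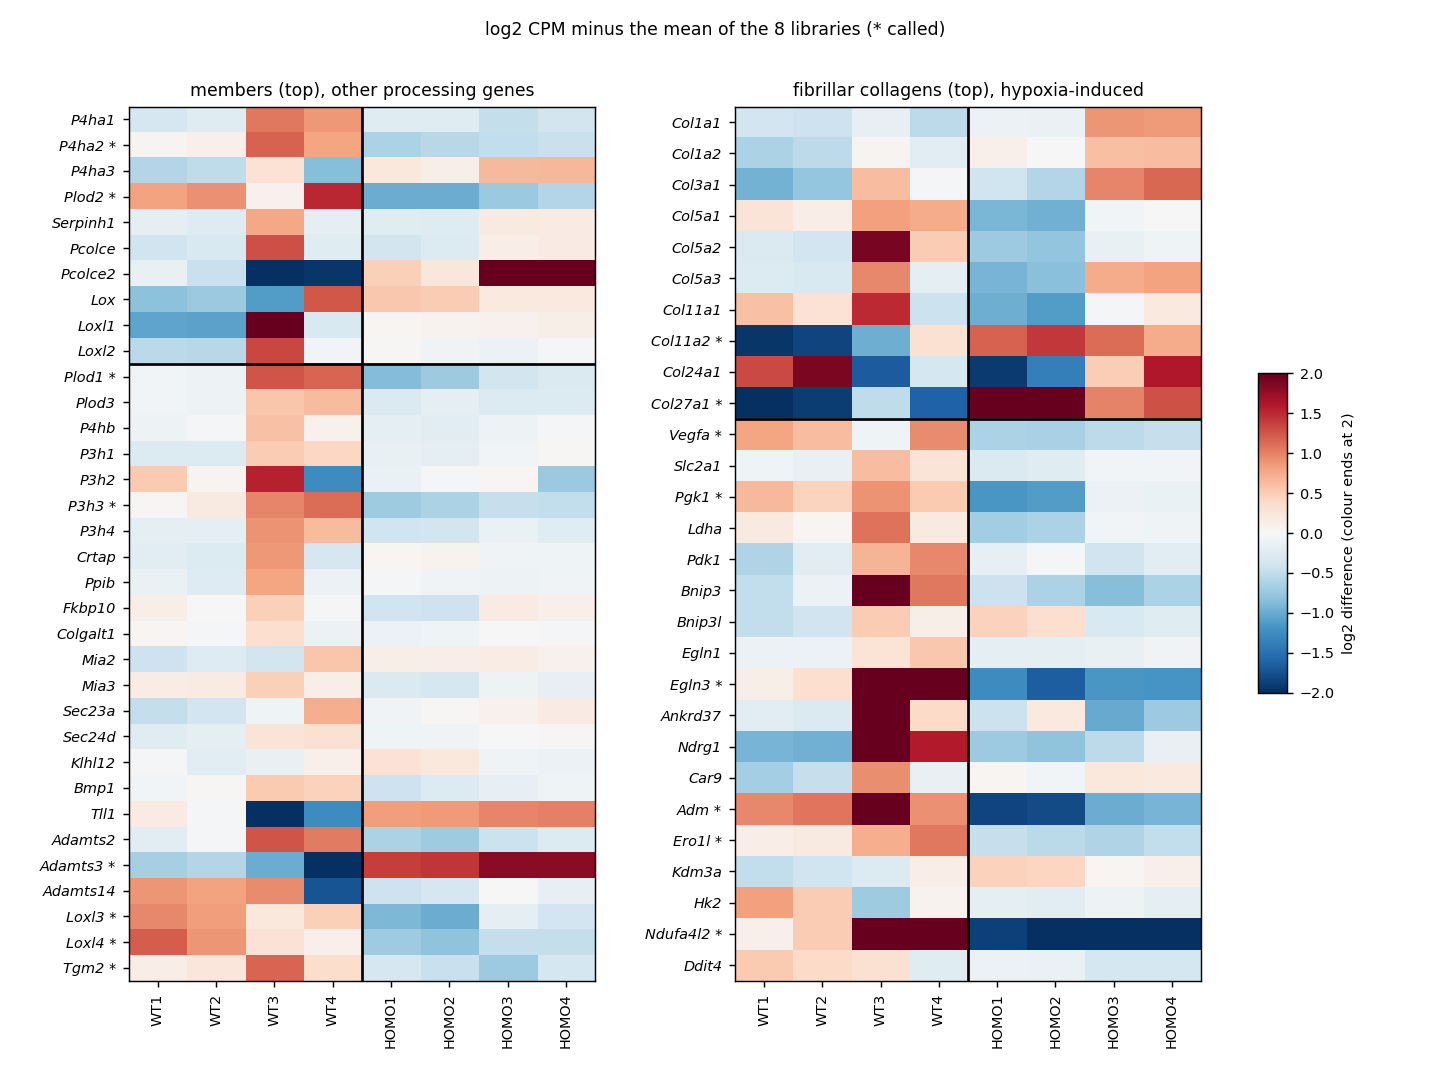
Heat map of log2 CPM minus the gene's mean over the 8 libraries (colour, ending at 2 in either direction) for the 10 genes and the other tested collagen processing genes (left) and for fibrillar collagens and hypoxia-induced genes (right), with a star on called genes. The called cross-linking genes *Loxl3*, *Loxl4* and *Tgm2* are lower in HOMO, *Col27a1* and *Col11a2* are higher, and the other strong colours of WT lie mostly in WT3 and WT4.

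For the called genes, the tested genes with the most similar profile were listed, by Pearson's r of log2 CPM over the 8 libraries, which share genotype and depth, and as a description without a test. For *P4ha2* these were *Orai1* (r = 0.998), *Aldoa* (0.997) and *Slc39a13* (0.997), a calcium channel, a glycolytic enzyme and a zinc transporter. For *Plod2* they were *Nckap1* (0.996), *Slc10a3* (0.995) and *Ctnna1* (0.993), of which *Nckap1* encodes a subunit of the WAVE actin regulatory complex and *Ctnna1* alpha-catenin. Their log2 fold changes were smaller than that of *Plod2*, at -0.36, -0.63 and -0.50.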

How the data were processed

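RNAseq libraries of pFBs from WT and HOMO mice, 4 each, were grouped by their labels. The authors cleaned the reads with fastp, mapped them to mm10 with STAR and made gene counts with featureCounts, which were deposited unnormalized. Versions, the gene annotation and the strand setting were not given in the sources used here. The table is named "outlierout", and which library, if any, had been taken out is not given in the sources used here.

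The 10 genes and all gene lists were chosen with earlier results of these data known. Named were the 10 genes, called genes of the other lists (at most 6 each), *Col1a1* and *Col1a2*, and the 3 closest profiles of each called gene. Single cell type markers and some uncalled genes of the lists were named after their values were seen. Counts were tested for HOMO against WT with edgeR 4.0.16 (TMM, filterByExpr, quasi-likelihood F test) in R 4.3.3, with Benjamini-Hochberg adjustment over 14150 genes and the study's thresholds (adjusted p 0.05, absolute log2 fold change 0.6). The standard error is the absolute log2 fold change over the square root of F, and log2 CPM used a prior count of 2. Family shares were compared by exact permutation over 70 assignments. Scripts were checked on simulated data. The alternatives were DESeq2 1.42.0, limma 3.58.1 (voom), other normalizations and filters, robust dispersions, no fold change threshold, the replicate number as a block, summed close pairs, each library left out, and shares without length scaling. Positions and exon lengths are from GENCODE M21. Intervals and floors cover the spread between libraries or counting error only. Python 3.11.15, pandas 2.3.3, scipy 1.17.1 and matplotlib 3.10.9 were used.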

Additional observations from a re-analysis of the deposited data

Results flagged for a closer look

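In 6 of 60 groups of 4 libraries, 1 library stood apart from the others by Dixon's criterion, which chance meets in about 1 of 20 groups of independent libraries. WT1 and WT2 lie close together, as do HOMO1 and HOMO2, and HOMO3 and HOMO4, so that rate does not apply directly here and the criterion cannot single out a HOMO library of a close pair. WT3 stood above the other WT libraries for *Serpinh1*, at 10.94 on the log2 CPM scale against 9.92 to 9.99, and for *Pcolce*, at 10.60 against 8.92 to 9.07. The log2 CPM of *Lox* was 12.70 in WT4 against 10.34 to 10.72 in the other WT libraries. For *Adamts3*, WT4 was low, at a log2 CPM of -2.28 against 0.90 to 1.32. *Adm* was high in WT3, at 9.41 against 7.70 to 7.86 on the same scale. The share of *Plod2* among lysyl hydroxylases was 28.1% in WT3 against 49.9 to 53.1% in the other WT libraries.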

How the results depend on the processing

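The number of DEGs was 1716 with all libraries in edgeR, 2913 in DESeq2, 3573 in limma-voom, 947 with the replicate number as a block, 0 with close pairs summed, and 507 to 2192 with 1 library left out. Of the 10 genes, 2 were called with all libraries, 4 in DESeq2, 6 in limma-voom, 0 with close pairs summed, and 1 to 4 with 1 library left out. For the other processing genes the count was 6, with the block 2, summed 0, and 0 to 7 with 1 library left out. Fibrillar chains went from 2 to 5 in DESeq2, 5 in limma-voom, 0 summed, and 1 to 2 with 1 library left out, and hypoxia-induced genes from 6 to 10 in limma-voom, 0 summed, and 1 to 8 with 1 library left out. In limma-voom, which weights each library, the log2 fold change turned to 0.26 for *Serpinh1*, 0.31 for *Pcolce*, 1.11 for *Loxl1* and 0.47 for *Loxl2*. With 1 library left out they ranged from -0.24 to 0.17, -0.51 to 0.24, -0.85 to 0.84 and -0.52 to 0.32, each above 0 only without WT3, and with the block that of *Loxl1* was 0.23. DESeq2 gave *Loxl1* no p-value. The block kept both calls among the 10 genes. Same-numbered libraries did not deviate together (r from -0.12 to 0.01 over 4 pairs, against -0.17 to 0.17 for libraries of different number). With close pairs among so few libraries, this check cannot tell whether the numbers pair them. *Plod2*, *P4ha2*, *P4ha1*, *P4ha3*, *Pcolce2* and *Lox* kept their direction under all alternatives, and so did the 4 family shares, but in limma-voom the log2 fold change of *P4ha1* shrank from -0.80 to -0.13 and that of *P4ha2* from -1.14 to -0.62. Changes in count with fewer libraries or units come with fewer samples in the fit, and the cause of the other changes was not tested. Low counts limit *Pcolce2*, *Adamts3* and *Ndufa4l2*, which had 4, 3 and 0 counts in their lowest library.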
